A study of Mus musculus with 2 samples.

Results

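The cytosolic ribosomal protein genes code for the protein parts of the ribosome that works in the cytosol. They were taken as every symbol with Rpl or Rps followed by a digit, together with Rpsa, Rplp0, Rplp1 and Rplp2. Symbols with -ps, Rps6k or Gm in the name were left out. A level of at least 20 CPM over the filtered cells of either library was required, CPM being the UMIs (unique molecular identifiers, each 1 captured RNA molecule) of a gene per 1000000 UMIs. The rule used no comparison between the groups. Of the 32285 genes in the list 86 symbols matched, and 83 reached that level. These were 45 proteins of the large subunit, 33 of the small subunit, the 3 stalk proteins Rplp0, Rplp1 and Rplp2, and 2 genes that share only the name pattern. The latter are Rpl7l1, a relative of Rpl7 that acts in ribosome assembly, and Rps19bp1, which binds Rps19. The 3 matching symbols under the level were Rpl39l at 5.18 CPM with DHT and 5.54 with vehicle, Rpl3l at 0.998 and 0.7404 CPM, and Rpl10l with 0 UMIs in both libraries. Rps4l was not analysed here.

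The data are 2 droplet-based 3′ libraries of adherent cells grown from the bone marrow of a male wild-type C57BL/6J mouse, 3 months old, whose label reads osteoclast precursors. Both cultures had 5 ng/mL M-CSF in medium depleted of hormones for 48 h, then 100 ng/mL M-CSF, 30 ng/mL RANKL and 10 ng/mL human TNF for 24 h. In both stages one culture also had 1 nM of the androgen 5α-dihydrotestosterone (DHT) and the other an equal volume of ethanol, the vehicle. There was 1 library per group and no replicate, so no test between the groups is possible, every difference below describes these 2 libraries, and the 95% intervals cover counting error only.

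After filtering, 7708 DHT cells and 8590 vehicle cells remained, with medians of 30133 and 50834 UMIs per cell. Cells were clustered without the ribosomal protein genes and named from marker lists, and the osteoclast precursor label covers only part of them. Osteoclast-like cells, whose clusters were led by genes such as Atp6v0d2, Dcstamp and Ctsk, numbered 1611 with DHT and 3216 with vehicle. Neutrophil-like cells numbered 1876 and 1097, monocyte-like 926 and 831, macrophage-like 835 and 824, B cell-like 340 and 113, granulocyte-monocyte progenitor-like 232 and 147, and dendritic cell-like 167 and 194. Cluster 1, with 736 and 1699 cells, was led by histone genes beside Gpnmb and Plxna4. It had 7 of 12 osteoclast and 6 of 10 macrophage markers over 2-fold, but stayed unnamed and outside the osteoclast-like class. So did cluster 3, with 968 and 463 barcodes and a median of 1542 UMIs. T cell and erythroid markers summed to at most 1.67 CPM in either library. The libraries shared 33 barcode sequences.

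Each ribosome holds a single copy of nearly every one of these proteins. The stalk proteins Rplp1 and Rplp2 are the exception, since several copies sit on Rplp0, where they recruit the elongation factors. Messages of ribosomal proteins commonly begin with a C and an unbroken run of pyrimidines, the 5′ terminal oligopyrimidine (5′TOP) element, through which mTORC1 and the RNA-binding protein Larp1 control their translation together. Ribosome production is known to be high in dividing progenitors and low in maturing neutrophils.

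The annotated starts of the genes that mark the ends of the pattern described below are printed first. RefSeq promoter windows (GRCm38.p6) were matched by symbol for 63 of the 83 genes, with 74 start sites. Each line gives 30 bases of the coding strand, 10 before the start and 20 from it on, 5′ to 3′. Capitals mark a C within 5 bases of the start with at least 4 further C or T bases after it. Rps18 and Rpl15 had the lowest DHT to vehicle ratios in osteoclast-like and macrophage-like cells, and Rpl38, Rps28 and Rpl41 were among the highest. Rps27 and Rps27l were among the 3 members that varied most between cell classes.
Rps18, chr17:33955646-33955675, minus strand: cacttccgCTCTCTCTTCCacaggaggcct
Rpl15, chr14:18270967-18270996, minus strand: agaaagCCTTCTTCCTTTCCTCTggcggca
Rpl38, chr11:114668570-114668599, plus strand: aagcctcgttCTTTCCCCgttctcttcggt
Rps28, chr17:33824543-33824572, minus strand: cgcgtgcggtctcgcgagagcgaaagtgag
Rpl41, chr10:128549149-128549178, minus strand: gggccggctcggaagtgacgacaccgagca
Rps27, chr3:90213629-90213658, minus strand: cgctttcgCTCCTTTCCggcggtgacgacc
Rps27l, first start, chr9:66946076-66946105, plus strand: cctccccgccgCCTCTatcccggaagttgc
Rps27l, second start, chr9:66946403-66946432, plus strand: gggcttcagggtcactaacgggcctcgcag
Long runs stand at both ends of the pattern, in Rps18, Rpl15 and Rpl38, and no run was found at the annotated starts of Rps28 and Rpl41 or at the second start of Rps27l. Over all members 32 of the 74 windows (43.2%) held such a run, beside 18.3% of all 32851 RefSeq windows searched in the same way on the coding strand. CCGGAAG, an ETS-type motif, searched on both strands of the 300-base window, was found in 35.1% of the members' windows and 8.86% of all. AAGATGGC, a YY1-type motif, was found in 10.8% and 2.75%, and GGGCGG, the GC box, in 62.2% and 35.7%. None of these motifs contains another, and a match describes the letters of the window only.

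Rps27 and its paralog Rps27l have coding sequences of equal length, 255 bases, which differ at 61 of them in the GENCODE M21 models (GRCm38). They are printed whole because the ratio of this pair is described below. Capitals mark the differing bases.
Rps27, spliced coding sequence: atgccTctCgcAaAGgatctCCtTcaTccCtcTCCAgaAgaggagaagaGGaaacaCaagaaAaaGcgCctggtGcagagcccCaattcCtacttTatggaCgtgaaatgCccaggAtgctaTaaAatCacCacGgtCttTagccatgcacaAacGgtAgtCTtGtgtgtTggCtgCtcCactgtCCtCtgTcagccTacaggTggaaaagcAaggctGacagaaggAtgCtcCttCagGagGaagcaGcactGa
Rps27l, spliced coding sequence: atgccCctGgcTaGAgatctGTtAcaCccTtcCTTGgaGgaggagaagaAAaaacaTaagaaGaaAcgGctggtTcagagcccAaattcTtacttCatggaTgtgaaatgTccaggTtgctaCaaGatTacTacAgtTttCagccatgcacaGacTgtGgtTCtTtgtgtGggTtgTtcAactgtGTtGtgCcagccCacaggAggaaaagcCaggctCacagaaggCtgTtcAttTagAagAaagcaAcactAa
The differences are spread along the whole length, and most are single bases. The coding sequence of Rps27rt, a further gene on chromosome 9, differs from that of Rps27 at 0 of 255 bases. The counting could divide or leave out reads shared by that pair, so the values of Rps27rt are uncertain. The values of Rps27 may be affected too, also in its ratios to Rps27l below.

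The members were abundant. The kit captures the 3′ end of a molecule once, so levels of different genes are given here in CPM without a correction for length. The median member stood at 1923 CPM with DHT and 2176 with vehicle over all filtered cells, and 74 of 83 were over 1000 CPM in both libraries. Among the highest were Rpl41 at 4680.5 CPM with DHT and 4772 with vehicle, the stalk protein Rplp1 at 4179 and 4673, and Rps27a, made as a fusion with ubiquitin, at 3601 and 4199. The lowest 4 were Rps27rt at 29.4 CPM with DHT and 27.4 with vehicle, Rps19bp1 at 70.3 and 82.8, Rpl7l1 at 126 and 139, and Rpl22l1, the paralog of Rpl22, at 354 and 367. Fau, a fusion of a ubiquitin-like protein with a ribosomal protein that has no Rp name, stood at 2702 and 3024 CPM. Most members of the complex thus lay within a few-fold of one another, with a small number far below.

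The share of all UMIs that came from the 83 genes differed more between cell classes than between the libraries. It was highest in progenitor-like cells, at 24.1% with DHT and 25.8% with vehicle. In the same order it was 19.98% and 21.6% in monocyte-like, 17.9% and 21.1% in dendritic cell-like, 17.3% and 19.1% in osteoclast-like, 14.2% and 17.2% in B cell-like and 12.2% and 14.8% in macrophage-like cells. Neutrophil-like cells were lowest, at 5.95% and 7.04%. Single cells spread widely around these values. The quartiles over osteoclast-like cells were 13.6% and 19.01% with DHT, so that dendritic cell-like cells, their neighbour in the order, overlapped with them. Inside the neutrophil-like class, cluster 9, which had the highest level of the proliferation gene Mki67 of its 3 clusters at 617 CPM, held 9.56% and 10.2%. Cluster 8, led by Ngp, Camp and Ltf, held 2.399% and 3.18%, and cluster 4, led by Retnlg, held 2.64% and 3.41%. In ribosomal protein UMIs per cell the medians were 279 and 255 in neutrophil-like, 8955 and 10434 in osteoclast-like and 15126 and 11789 in progenitor-like cells.

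**Figure D1:**
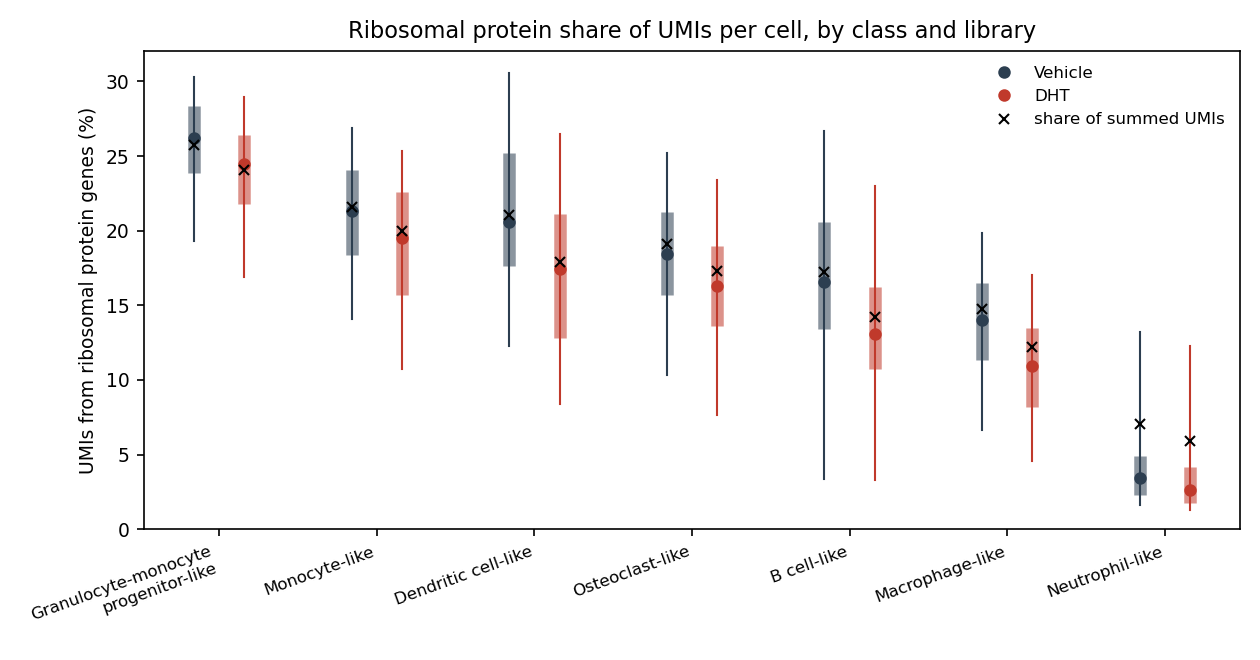
Percentage of a cell's UMIs that came from the 83 ribosomal protein genes (y axis), by cell class and library. Points are medians over cells, boxes the quartiles, lines the 5th to 95th percentiles and crosses the share of the summed UMIs. Progenitor-like cells are highest and neutrophil-like cells lowest, and the DHT median is below the vehicle median in all 7 classes.

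With DHT the share was lower than with vehicle in each of the 7 classes compared. Over all filtered cells it was 16.5% with DHT and 18.5% with vehicle, a ratio of 0.889 (interval 0.888 to 0.889). The ratio was 0.905 in osteoclast-like cells (0.905 to 0.906). It was 0.934 in progenitor-like, 0.926 in monocyte-like, 0.8499 in dendritic cell-like, 0.844 in neutrophil-like, 0.827 in macrophage-like and 0.824 in B cell-like cells. The classes with the highest shares, progenitor-like and monocyte-like cells, had the ratios closest to 1. Per cell, the median share of osteoclast-like cells was 16.3% and 18.5%. The composition of the libraries differed, and with the 14 clusters of at least 100 cells in both libraries given the same weights in both, the shares were 16.7% and 18.3%, a ratio of 0.913. Cluster 1 had a ratio of 0.955 and the shallow cluster 3 one of 0.795.

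No member differed by as much as 1.5-fold over all cells, where 5.48% of all genes at 20 CPM were that much higher with DHT and 0.178% lower. Neither did any in osteoclast-like cells, beside 0.976% higher and 0.0774% lower of all genes. The count was also 0 in monocyte-like cells (all genes 1.65% and 0.235%), progenitor-like cells (1.36% and 0.498%), neutrophil-like cells (1.87% and 0.733%, with 82 members at 20 CPM) and dendritic cell-like cells (10.9% and 3.2%). In macrophage-like cells 2 members were at least 1.5-fold lower and 0 higher, beside 1.16% and 3.63% of all genes. They were Rps18, of the small subunit, at 1173 CPM with DHT and 1792 with vehicle, and Rpl15, of the large subunit, at 866 and 1309. In B cell-like cells 1 member was lower, beside 7.21% of all genes, and 1 higher, beside 10.5%. The first was Rpl21 at 1590.2 CPM with DHT and 2473 with vehicle. The second was Rps19bp1, on only 66 UMIs with DHT and 10 with vehicle, with an interval of the ratio from 0.768 to 3.28. In these cells it reached 20 CPM only with DHT. In dendritic cell-like and B cell-like cells the members' counts were below the shares of all genes. The calls in macrophage-like cells were 0 with mitochondrial genes and Gm42418 out of the totals, with at most 5% mitochondrial UMIs per cell, with at least 1000 genes and 2000 UMIs, without doublet removal and at either other cluster resolution. They were 1 without the highest doublet scores, and 9, beside 1.93% of all genes, with cells weighted equally. Without doublet removal, 34 members were at least 1.5-fold lower in neutrophil-like cells, beside 6.38% of all genes, in a class that was clustered anew and held 1850 DHT and 1088 vehicle cells.

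The clusters inside the neutrophil-like class differed among themselves. Cluster 4 had 7 members at least 1.5-fold lower, beside 1.75% of all genes, with Rpl29 at the low end at 129 CPM with DHT and 206 with vehicle. Cluster 8 had 9, beside 1.26%, among them Rps18 at 187 CPM with DHT and 305 with vehicle, and cluster 9, with its higher Mki67, had 0, beside 1.16%. Cluster 3 had 1, Rps2 at 2982 and 4573 CPM, beside 6.66%.

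The lower share was spread over most members at small sizes. In osteoclast-like cells 69 of 83 members had a log2 ratio (DHT over vehicle) below 0. The median of the 83 was -0.16, where the median of all 6457 genes tested was 0.05 and 33.9% lay below 0. The medians of the members and of all genes were -0.30 and 0.01 in macrophage-like, -0.12 and 0.04 in monocyte-like, and -0.12 and 0.08 in progenitor-like cells. They were -0.26 and 0.03 in neutrophil-like, -0.25 and 0.03 in dendritic cell-like, and -0.26 and 0.02 in B cell-like cells. The members' median was thus below that of all genes in every class. It stayed below 0 in the 7 classes under each of 4 other scalings, which moved it by at most 0.08.

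Ratios at or below 0.8, that is at least 20% lower with DHT, were found for 39 members in macrophage-like cells, beside 6.58% of all genes. The number was 17 in neutrophil-like cells beside 5.22%, 24 in dendritic cell-like cells beside 14.8%, and 31 in B cell-like cells beside 19%. It was 3 in osteoclast-like cells (Rps18, Rpl15 and Rpl9) beside 1.21%. It was 0 in monocyte-like and progenitor-like cells and over all cells, beside 1.27%, 2.86% and 3% of all genes.

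**Figure D2:**
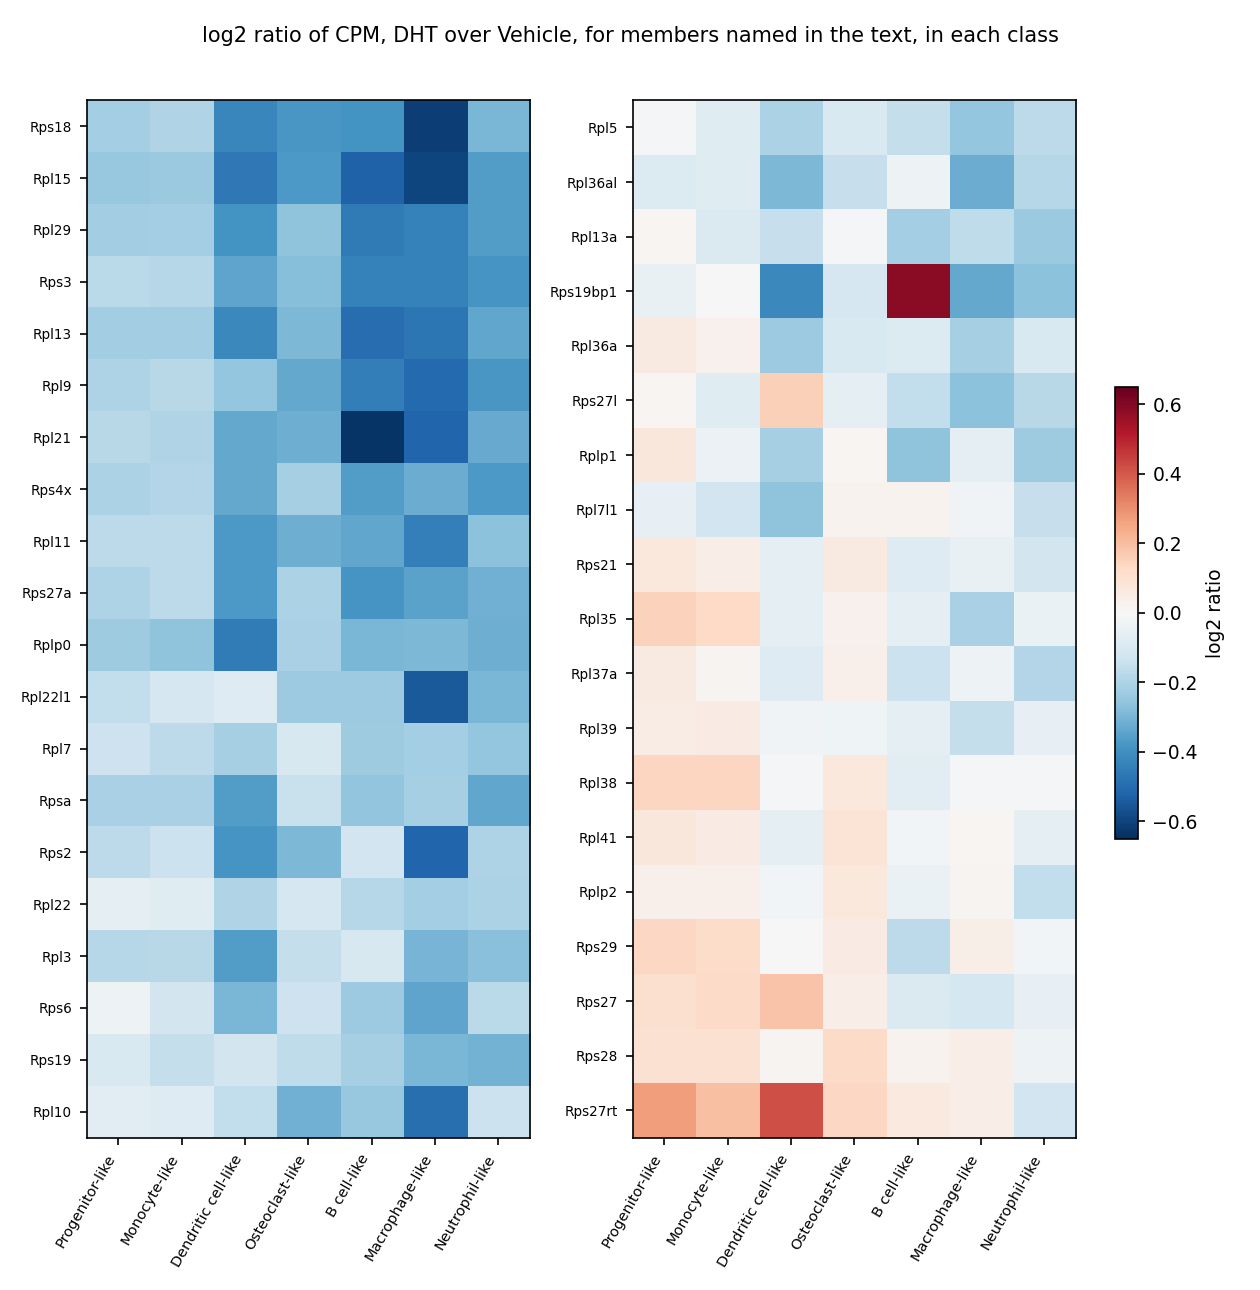
Heat map of the log2 ratio of CPM, DHT over vehicle, on library totals, for members described in the text (rows, ordered by their median over classes) in 7 cell classes (columns). Blue is lower and red higher with DHT. Most of the map is blue, with Rps18 and Rpl15 lowest by that median, and red gathers in Rps27rt, Rps28, Rps27, Rps29 and Rpl41, some of which turn below 0 under other scalings.

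Most members were lower with DHT in every class. Of the 83, 59 had a ratio below 1 in all 7 classes, 0 had one above 1 in all, and 24 were mixed. The classes come from the same 2 libraries and are not replicates of the comparison. Across the members, Pearson's r of the log2 ratios between classes ran from 0.47 for dendritic cell-like and B cell-like cells to 0.96 for osteoclast-like and macrophage-like cells, over 21 pairs.

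At the low end stood Rps18 and Rpl15. In osteoclast-like cells Rps18 had 1974 CPM with DHT and 2569.7 with vehicle, a log2 ratio of -0.38, and over the classes its log2 ratio ran from -0.61 in macrophage-like to -0.20 in monocyte-like cells. Rpl15 had 1415 and 1829 CPM in osteoclast-like cells (-0.37) and ran from -0.60 in macrophage-like to -0.24 in monocyte-like cells, and it was among the 10 lowest members in all 7 classes. Rpl9, of the large subunit, was the third of the lowest in osteoclast-like cells at 1356 and 1706 CPM (-0.33). The paralog Rpl22l1 was the third in macrophage-like cells, at 181 and 264 CPM (-0.55).

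Other classes had other members at the low end. In monocyte-like cells these were the stalk base Rplp0 (-0.26), Rpl15 and Rpl13 (-0.23), and in progenitor-like cells Rpl15, Rplp0 (-0.23) and Rpl29 (-0.23). In neutrophil-like cells Rps3 (-0.38) and Rpl9 (-0.38) were lowest. In dendritic cell-like cells they were Rpl15, Rplp0 (-0.46) and Rps18 (-0.43), and in B cell-like cells Rpl21 (-0.64), Rpl15 and Rpl13 (-0.50). Large subunit proteins made up most of these names, but the medians of both subunits were close, as given below.

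Some members with functions outside the ribosome were looked at by name. Rpl5 and Rpl11, which with 5S rRNA bind Mdm2 and so link ribosome assembly to p53, had log2 ratios of -0.10 and -0.32 in osteoclast-like and -0.25 and -0.45 in macrophage-like cells. Rps6, the substrate of S6 kinase, had -0.14 and -0.34 in these classes. Rpl13a, known for a role in silencing inflammatory messages, had -0.01 and -0.17.

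At the high end stood short proteins. In osteoclast-like cells Rps28 had 2485 CPM with DHT and 2283 with vehicle (log2 ratio 0.12), Rpl41 5444 and 5118 CPM (0.09) and Rps27rt 32.1 and 29.2 CPM (0.14). Over the classes Rps28 ran from -0.03 in neutrophil-like to 0.12 in osteoclast-like cells, and Rpl38 from -0.07 in B cell-like to 0.14 in progenitor-like cells. Rpl38 and Rpl35 followed Rps27rt at the high end in monocyte-like cells (0.14 and 0.13) and in progenitor-like cells (0.14 and 0.15). In neutrophil-like cells the highest were still below 0 on totals, with Rpl38 at -0.01, Rps29 at -0.02 and Rps28 at -0.03. In dendritic cell-like cells Rps27rt (0.42), Rps27 (0.19) and Rps27l (0.16) were highest.

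These directions depend on the scaling. In osteoclast-like cells 14 of 83 members were above 0 on totals and 7 under TMM, where Rps27, Rpl35, Rpl37a and Rplp1 were among those that passed to below 0. Rps28, Rpl41, Rpl38, Rps29, Rplp2, Rps21 and Rps27rt stayed above 0 under TMM and under the median of ratios. In progenitor-like cells 21 were above 0 on totals and 11 under TMM, and in neutrophil-like cells 0 under both and 2, Rpl38 and Rps29, under the median of ratios.

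The order of the members went with the length of the coding sequence. In osteoclast-like cells the 11 members under 300 coding bases had a median log2 ratio of 0.05 on totals and 0.00 under TMM. The 30 from 300 to under 450 bases had -0.14, the 19 from 450 to under 600 had -0.24, and the 23 of 600 or more had -0.16. In monocyte-like cells the same 4 medians were 0.07, -0.09, -0.17 and -0.17. Of the 11 short members, 8 were above 0 in osteoclast-like, 10 in monocyte-like and 11 in progenitor-like cells on totals, and 6, 9 and 8 under TMM. In macrophage-like cells it was 4 under both, and in neutrophil-like cells 0 of 10 under both.

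Pearson's r between log2 ratio and log2 coding length over the members was -0.50 in osteoclast-like and -0.70 in monocyte-like cells, and weakest in B cell-like cells at -0.35. Over the other genes tested it had the opposite sign, 0.20 over 6288 genes in osteoclast-like and 0.22 in monocyte-like cells. The 165 other genes under 300 bases had a median of -0.07 in osteoclast-like cells. These are correlations across genes that share both libraries, and genes are not independent replicates.

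**Figure D3:**
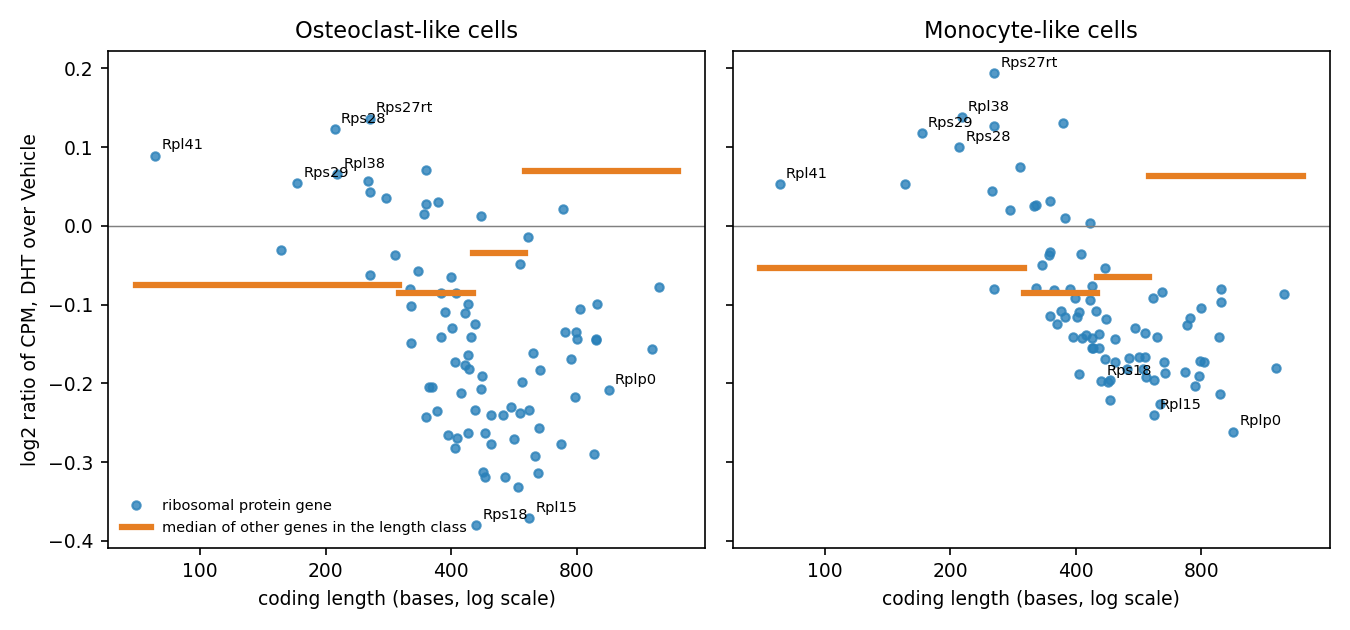
Log2 ratio of CPM, DHT over vehicle on library totals (y axis), against coding length in bases (x axis, log scale) for the 83 members (points) in osteoclast-like (left) and monocyte-like cells (right). Orange lines are the medians of all other genes tested in 4 length classes. In osteoclast-like cells short members lie above the line, 8 of 11 of them above 0 (6 under TMM), and most longer members lie below it in both panels.

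A pyrimidine run at the annotated start did not divide the members in this way. The search found a run in only 8 of 18 windows (44.4%) of the elongation factors and other 5′TOP messages. Members without a run may thus still carry the element, and the comparison does not sort members by it. In osteoclast-like cells the 30 members with a pyrimidine run had a median log2 ratio of -0.14, from -0.38 to 0.14. The 33 matched members without one had -0.14, from -0.33 to 0.12. In macrophage-like cells the medians were -0.26 and -0.30, so that in both classes the ranges overlapped almost wholly.

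Both subunits had much the same values. In osteoclast-like cells the 45 large subunit genes had a median log2 ratio of -0.17 and the 33 small subunit genes -0.16, and the summed UMIs of the large subunit were 1.13 times those of the small in both libraries. In macrophage-like cells the medians were -0.32 and -0.30. The stalk proteins differed among themselves. Rplp0 ran from -0.46 in dendritic cell-like to -0.21 in osteoclast-like cells, Rplp1 from -0.26 in B cell-like to 0.08 in progenitor-like cells, and Rplp2 from -0.16 in neutrophil-like to 0.07 in osteoclast-like cells. In osteoclast-like cells Rplp0 stood at 2375 CPM with DHT and 2745 with vehicle, and Rplp2, which sits on it, at 2902 and 2764. Of the fusions, Rps27a had a log2 ratio of -0.21 in osteoclast-like cells, and Fau had -0.18.

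The makeup of the set varied between cell classes through few genes. As a share of ribosomal protein UMIs, the median member differed 1.37-fold between its highest and its lowest class with DHT and 1.38-fold with vehicle. The highest class was the same in both libraries for 68 of 83 members and the lowest for 62. Rps27l varied most, 4.22-fold with DHT and 4.33-fold with vehicle, highest in osteoclast-like and lowest in B cell-like cells. Rps27rt varied 3.68-fold with DHT and 3.75-fold with vehicle. Rps27 varied 3.21-fold with DHT and 3.25-fold with vehicle, highest in B cell-like and lowest in progenitor-like cells. Rps2, the reverse of it, varied 2.79-fold with DHT and 3.26-fold with vehicle. Rps19bp1, the last of the 5 that varied most, had only 10 UMIs in its lowest class with vehicle.

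The pair Rps27 and Rps27l, whose coding sequences are printed above, stood in a different proportion in each class. Rps27l is known as a p53 target. In osteoclast-like cells Rps27 stood at 1013 CPM with DHT and 984 with vehicle and Rps27l at 976 and 1019, which is 96.3 and 104 Rps27l UMIs per 100 of Rps27. These values were 87.6 and 97.3 in macrophage-like, 70.3 and 81.1 in monocyte-like, 70.02 and 74.8 in progenitor-like, 46.9 and 48.01 in dendritic cell-like and 40.6 and 44.4 in neutrophil-like cells. In B cell-like cells they were 7.63 and 8.0, on 2486 and 2653 CPM of Rps27. The paralogs were thus about level in osteoclast-like cells, and Rps27l was scarce in B cell-like cells. The value was lower with DHT in each of the 7 classes, and no scaling of the libraries alters a ratio within a library. No interval was computed for it. The gap was small in dendritic cell-like and B cell-like cells, and in the latter it rested on 432 and 110 Rps27l UMIs.

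**Figure D4:**
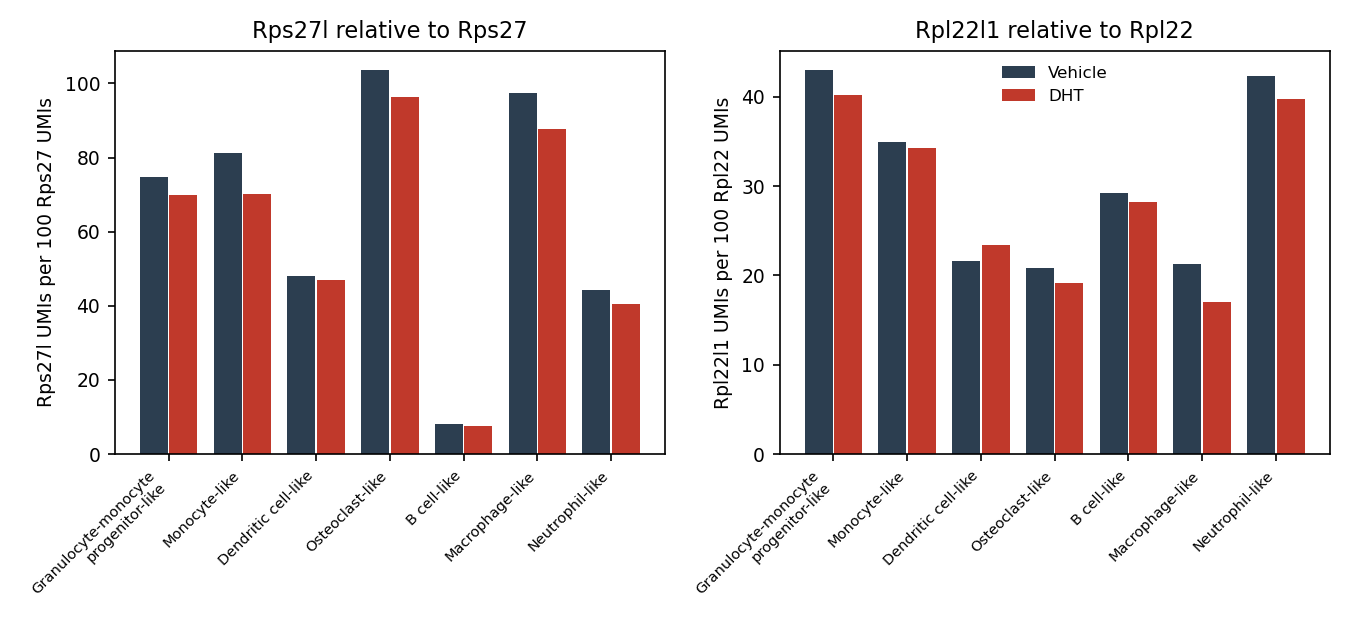
Rps27l UMIs per 100 Rps27 UMIs (left) and Rpl22l1 UMIs per 100 Rpl22 UMIs (right) in each cell class, as bars from 0 for each library. Rps27l is about level with Rps27 in osteoclast-like cells and lowest in B cell-like cells, and Rpl22l1 is highest in progenitor-like and neutrophil-like cells.

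The other paralogs had patterns of their own. Rpl22l1, which can stand in for Rpl22 and whose coding sequence is 66.9% identical to it, had 40.2 and 43.0 UMIs per 100 of Rpl22 in progenitor-like and 39.7 and 42.3 in neutrophil-like cells. The values were 34.3 and 34.98 in monocyte-like, 19.1 and 20.9 in osteoclast-like and 17.02 and 21.3 in macrophage-like cells. Rpl36al differs from Rpl36a at 39 of 321 coding bases and had 96.8 and 100.0 UMIs per 100 of it in osteoclast-like cells. Rpl39l, known from testis, had 5.66 CPM there with DHT, where Rpl39 had 1812, and Rpl3, the partner of the muscle paralog Rpl3l, had 1448 and 1614 CPM there. The 4 members on the X chromosome are Rpl10, Rpl36a, Rpl39 and Rps4x. Rpl10 stood at 879 and 1092 CPM in osteoclast-like cells. The log2 ratios of the 4 there were -0.31, -0.10, -0.03 and -0.22, within the range of the other members.

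Other genes of the translation machinery were read from lists. Of all genes in osteoclast-like cells 0.976% were at least 1.5-fold higher with DHT and 0.0774% lower. There 0 of 24 elongation factors and other 5′TOP messages passed 1.5-fold, and their median log2 ratio was -0.08, with 17 below 0. They ran from Eif3k, a subunit of initiation factor eIF3, at 260.2 and 311 CPM, to Pabpc1, the poly(A)-binding protein, at 1392 and 1229 CPM. The 28 initiation factors had a median of 0.02, the 42 ribosome biogenesis genes 0.05 with 28 above 0, where 66.1% of all genes were above 0, the 11 RNA polymerase I genes 0.00 and the 12 chaperones and importers of ribosomal proteins 0.03. The list of chaperones and importers includes the members Rpl7l1 and Rps19bp1, and shares Nap1l1 with the 5′TOP list. The 78 mitochondrial ribosomal proteins, which build the separate ribosome of mitochondria, had -0.10 with 59 below 0, beside 33.9% of all genes. None of these genes passed 1.5-fold there, where few of all genes did. At the ends of the other lists in osteoclast-like cells, the log2 ratios were lowest for Eif3i and Eif6 (-0.21 and -0.19) and highest for Eif2s3x and Eif4g2 (0.25 and 0.18) among initiation factors. Among biogenesis genes they were lowest for Nhp2 and Rrp1b (-0.15 and -0.12) and highest for Rrp12 and Pes1 (0.22 and 0.20). Among RNA polymerase I genes Cd3eap (-0.19) was lowest and Rrn3, its initiation factor, highest (0.28). Among mitochondrial ribosomal proteins Mrpl54 (-0.28) was lowest and Mrps2 (0.24) highest. The cytosolic ribosomal protein genes had the lowest median beside these lists, at -0.16.

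In macrophage-like cells the medians were -0.22 for the 5′TOP messages, -0.08 for initiation factors, -0.11 for biogenesis, -0.11 for RNA polymerase I and -0.23 for the mitochondrial ribosomal proteins, of which 73 of 77 were below 0, beside 48.9% of all genes. In progenitor-like cells 32 of 42 biogenesis genes were above 0, beside 63.99% of all genes, with Heatr1, a factor of the small subunit processome, at the top at 56.7 and 38.7 CPM, and 62 of 83 ribosomal protein genes were below 0, beside 36.01%. In dendritic cell-like cells 35 of 39 biogenesis genes were below 0, beside 46.5% of all genes, and 1 was past 1.5-fold lower, Wdr12, at 29.1 and 55.96 CPM. Of 74 mitochondrial ribosomal proteins 4 were past 1.5-fold lower there, beside 3.2% of all genes, with Mrps18b lowest at 27.2 and 46.1 CPM. So were Grwd1, a chaperone of Rpl3, at 13.2 and 21.02 CPM and Bax at 219.8 and 333. Grwd1 reached 20 CPM there only with vehicle, the group where it was the higher. In B cell-like cells, which rest on 113 vehicle cells, 13 of 77 mitochondrial ribosomal proteins were past 1.5-fold lower and 5 higher, beside 7.21% and 10.5% of all genes. The biogenesis genes there had 2 lower and 4 higher of 32, close to those shares. In neutrophil-like cells, where 0.733% of all genes were past 1.5-fold lower, Mrpl12 was, at 45.9 and 71.7 CPM, and so was 1 of the 5′TOP messages, the intermediate filament gene Vim, at 446 and 688 CPM.

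Of the regulators, 0 of 13 genes of mTORC1 and Myc control passed 1.5-fold in osteoclast-like cells, beside 0.976% of all genes higher and 0.0774% lower. Myc stood there at 97.6 and 88.3 CPM and Larp1 at 265 and 234. Mxd1, which competes with Myc for its partner Max, was past 1.5-fold higher in macrophage-like cells at 23.2 and 7.43 CPM and in dendritic cell-like cells at 91.6 and 35.1, where its relative Mxi1 was too, at 46.7 and 21.8. Of all genes 3.63% in macrophage-like and 10.9% in dendritic cell-like cells were that much higher. In macrophage-like cells Mxd1 reached 20 CPM only with DHT, the group where it was the higher. Mxd1 stood at 275 and 202 CPM in neutrophil-like cells. The summed neutrophil markers, given below, were higher with DHT in macrophage-like and lower in dendritic cell-like cells. The part of neutrophil RNA in these Mxd1 values was not tested. Of 9 genes of the p53 list, which includes Rps27l, 0 passed in osteoclast-like cells, beside 0.976% of all genes higher and 0.0774% lower. Cdkn1a, the cell cycle inhibitor p21, stood there at 186 and 140.0 CPM and the cell death gene Bax at 289.6 and 351. In macrophage-like cells Cdkn1a was past 1.5-fold higher, at 363 and 241 CPM.

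Other measures differed between the libraries beside the share. UMIs of Gm42418, which overlaps ribosomal RNA sequence, made up 4.297% and 3.18% of the total in osteoclast-like, 5.71% and 3.93% in macrophage-like and 1.48% and 0.946% in monocyte-like cells, and were the larger share with DHT in all 7 classes. With Gm42418 and the mitochondrial genes out of the totals, the members' median in osteoclast-like cells was -0.14. Mitochondrial shares were 2.85% and 2.84% there. The 10 neutrophil markers, 0 of them at 0, summed to 821 and 369 CPM in osteoclast-like, 1663 and 537 in macrophage-like and 4541 and 2506 in monocyte-like cells. In dendritic cell-like cells the sums had the other order, 594 and 1239.7 CPM. The part of these measures in the result was not tested.

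Depth per cell differed as well, and in osteoclast-like, macrophage-like and monocyte-like cells the share was larger in deeper cells. Each class was divided into 3 depth groups of equal size over both libraries together, which does not make depth equal inside a group. In the lowest group the median UMIs per cell with DHT and with vehicle were 30952 and 34906 in osteoclast-like cells. They were 13942 and 18253 in macrophage-like cells and, in the other order, 6166 and 5474.5 in neutrophil-like cells. In osteoclast-like cells the shares with DHT and with vehicle were 14.0% and 16.1% in the lowest group, 16.97% and 19.2% in the middle and 18.6% and 20.1% in the highest. The DHT value was the lower in 21 of 21 groups over the 7 classes. The pair closest to each other was the lowest group of neutrophil-like cells, at 3.35% and 3.42%. The highest group of B cell-like cells held only 6 vehicle cells. Barcodes with over 20% mitochondrial UMIs, which the filter left out, had a share of 2.39% in both libraries.

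**Figure D5:**
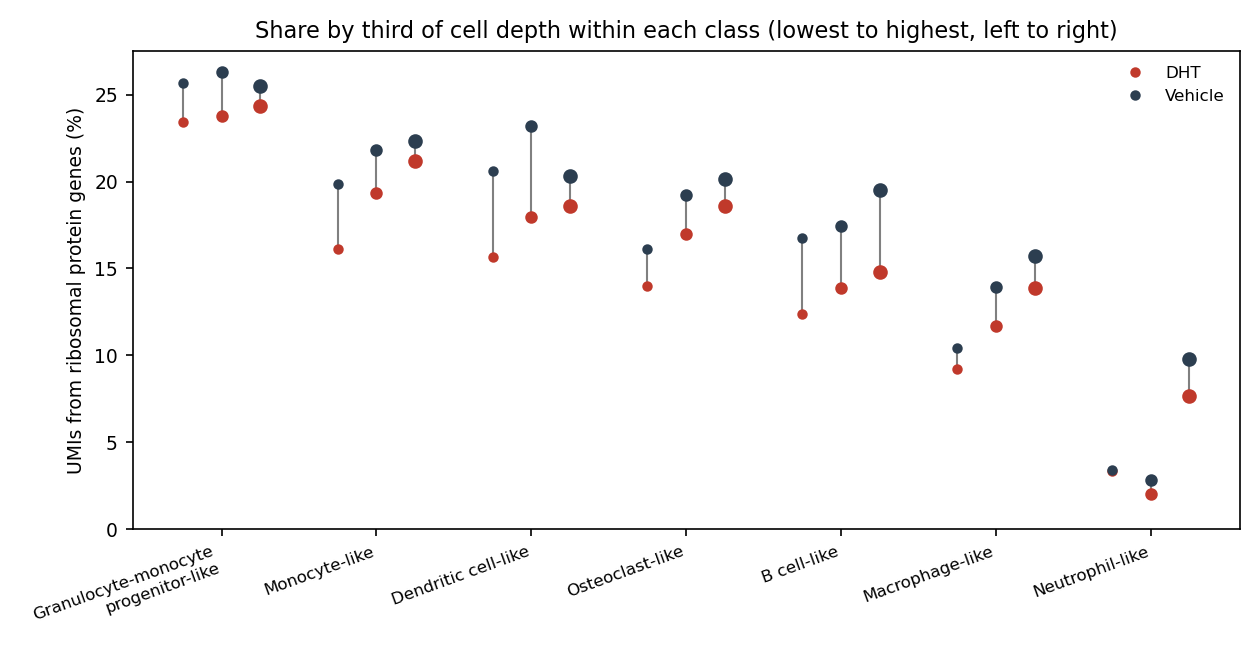
Percentage of summed UMIs from the 83 ribosomal protein genes (y axis) in 3 depth groups of each of 7 cell classes, for both libraries. In all 21 pairs the DHT point is below the vehicle point, and in the lowest group of neutrophil-like cells the points nearly coincide.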

How the data were processed

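Per the labels' protocols, bone marrow cells of a wild-type mouse were cultured with DHT or vehicle and made into 3′ droplet libraries. The authors deposited a count matrix for each library, which holds whole UMI counts per gene and barcode, not normalized. Cell Ranger 7.0.1 is named in the submitters' processing notes. Whether intronic reads were counted is not given in the sources used here.

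Barcodes with at least 300 genes, 800 UMIs and at most 10% mitochondrial UMIs were kept, of 10798 (DHT) and 10630 (vehicle), leaving 296659811 and 430858831 UMIs. Scrublet, as in scanpy 1.11.5, marked 203 and 156 barcodes as doublets, which were removed. Cells were clustered (2000 variable genes, 30 components, Leiden resolution 0.6) without ribosomal protein and interferon-response genes. Classes were named from marker lists of 19 types, with at least 3 markers, and 7 classes of at least 100 cells per library were compared.

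UMIs were summed per class and library and divided by the total. With 1 library per group there is no replicate and no test. Features at 20 CPM or more in either library were called by a 1.5-fold size rule, and intervals are exact 95% intervals for counting error. On simulated counts for osteoclast-like cells (6345 genes) the intervals held the true ratio for 95.3% of genes. These counts were drawn with counting error only and with the scaling known. The simulation thus checks the calculation, and says nothing of variation between cells or libraries. Named are the extreme members of each class, members past 1.5-fold, the 5 that vary most between classes, and paralogs, stalk proteins, fusions and regulators by name, with the extremes of 9 lists. Some genes that this rule picks are not reported here. The members and lists were chosen with earlier results of these data known. Alternatives covered scaling, cell filters, doublets, depth, clustering and totals.

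Promoter windows are RefSeq's (GRCm38.p6), and coding sequences come from GENCODE M21. Python 3.11.15, numpy 2.4.6, scipy 1.17.1, pandas 2.3.3, scikit-learn 1.9.0, leidenalg 0.10.2, igraph 0.11.9, matplotlib 3.10.9 and biopython 1.88 were used.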

Additional observations from a re-analysis of the deposited data

Results flagged for a closer look

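In 4 members both classes named moved in opposite directions between the libraries, and the difference between the classes was not tested. Rpl35, of the large subunit, had a log2 ratio (DHT over vehicle) of 0.15 in progenitor-like and -0.21 in macrophage-like cells, a gap of 0.36. Rpl4, also of the large subunit, had 0.08 in progenitor-like and -0.33 in dendritic cell-like cells, a gap of 0.42. The stalk protein Rplp1 had 0.08 in progenitor-like and -0.26 in B cell-like cells, a gap of 0.34. The paralog Rps27l had 0.16 in dendritic cell-like and -0.27 in macrophage-like cells, a gap of 0.42. The values above 0 stayed above 0 under the 4 other scalings. Each group of samples has 1 library, so no sample can be set apart from others of its group.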

How the results depend on the processing

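No paired analysis was possible because each group has 1 library. Of 488 alternative values under 19 settings 0 changed direction. This count leaves out the directions of single members, some of which changed with the scaling as described above. Over all cells the share ratio (0.889) was 0.792 with cells weighted equally, 0.893 without mitochondrial genes and Gm42418 in the totals, 0.890 without cluster 3 (chosen after seeing the data), 0.890 and 0.888 at limits of 5% and 20% mitochondrial UMIs, 0.889 with at least 1000 genes and 2000 UMIs, 0.886 without doublet removal and 0.881 without the 10% of cells with the highest doublet scores. The members' median log2 ratio (-0.18) was -0.25 under TMM, -0.26 under the median of ratios, -0.22 with ribosomal protein UMIs out of the totals, -0.36 with cells weighted equally, -0.17 without mitochondrial genes and Gm42418, and -0.19 without the highest doublet scores. In osteoclast-like cells the share ratio (0.905) was 0.881 with cells weighted equally, 0.916 without mitochondrial genes and Gm42418, 0.927 and 0.928 at the mitochondrial limits, 0.915 with more genes and UMIs, 0.903 without doublet removal and 0.904 without the highest doublet scores. It was 0.926 and 0.928 at resolutions 0.3 and 1.0 and 0.928 with ribosomal protein genes in the clustering. Each other filter, doublet setting, resolution or gene choice clusters and names the cells anew, so these values come from other sets of osteoclast-like cells, from 635 DHT and 1104 vehicle cells with more genes and UMIs to 2386 and 5059 at resolution 0.3. The median there (-0.16) was -0.21, -0.20, -0.19, -0.20 and -0.14 under the first 5 settings named for the median over all cells, -0.12 and -0.11 at the mitochondrial limits, -0.14 with more genes and UMIs, and -0.12 at both resolutions and with ribosomal protein genes in the clustering. With a size rule of 20% lower in place of 1.5-fold, 3 members were called there in place of 0. The cause of these changes was not tested. Of these headline values 86 stayed within the interval or within 1.5 times the count and 36 did not. For the other classes 275 values stayed so and 91 did not, and the share ratio stayed below 1 in every class under every setting run. Thinning was not run in monocyte-like, progenitor-like, neutrophil-like and B cell-like cells, where the vehicle cells were the shallower. Single values with thinning, where it was run, are not given here. Depth limits B cell-like cells most, with 113 vehicle cells.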
